A study of Mus musculus with 12 samples.

Results

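The 36 genes described here stand for the constitutive subunits of the mouse proteasome, though 3 of them encode chaperones that assemble its base and 2 are tissue-restricted subunits. They were chosen by name: every gene whose symbol is Psma, Psmb, Psmc or Psmd followed by a number, leaving out the immunoproteasome subunits Psmb8, Psmb9 and Psmb10, and carried by at least 1 probe of the array. All 36 were found, with 44 probes, and 35 of them were among the 20862 genes tested. Of the 36 genes 16 are counted with the core particle, among them the tissue-restricted Psma8 and Psmb11. The other 20 are counted with the regulatory particle, among them the 3 chaperones Psmd5, Psmd9 and Psmd10.

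The study measured RNA of cultured peritoneal macrophages from wild-type C57BL/6 mice, a laboratory strain, aged 8 weeks, on 12 single-colour Agilent arrays, with 4 arrays in each of 3 groups. The IL4+emodin group received interleukin 4 at 10 ng/ml together with emodin, a plant anthraquinone, at 50 µM. The IL4 group received the same dose of interleukin 4 alone, a cytokine known for driving alternative macrophage activation, and the control group received vehicle. In all groups the cells had adhered for a short time after plating and had then stood overnight without serum before treatment. The sample descriptions give 6 h of treatment while the treatment protocol speaks of overnight, and the design text names white blood cells where the sample labels name peritoneal macrophages. No label says whether the 4 arrays of a group came from separate animals, so the spread that p-values are based on may be technical.

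The proteasome is the protease that degrades ubiquitin-tagged proteins in the cytosol and nucleus. Its core particle is a barrel of alpha rings, which gate the entrance, around beta rings, in which Psmb5, Psmb6 and Psmb7 carry the peptidase sites. The regulatory particle caps the barrel: its base holds a ring of ATPases (Psmc1 to Psmc6) that unfold substrates, and its lid removes ubiquitin chains. In activated macrophages the catalytic subunits can be replaced by Psmb8, Psmb9 and Psmb10, which form the immunoproteasome used in antigen processing.

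Each value below is a log2 spot intensity minus the log2 of the 75th percentile of its array, called the log2 value. It is a level relative to the other probes of the same array, and levels of different genes are not compared. The 75th percentile averaged 488 ± 31.4 intensity units on the IL4+emodin arrays, 776 ± 24.4 on the IL4 arrays and 730 ± 74.0 on the control arrays (SD, n = 4 each). It was lower on every IL4+emodin array than on any other (exact permutation test, two-sided, p = 0.0286 against each group, the smallest 4 against 4 arrays allow), while IL4 and control did not differ beyond their spread (p = 0.286). Probes well above background made up 48.3%, 52.3% and 50.2% in the IL4+emodin, IL4 and control groups. One slide held the 4 IL4+emodin arrays and a second one all IL4 and control arrays, and emodin cannot be told apart from the slide. Row 1 of a slide held every IL4 array and row 2 every other one, and IL4 cannot be told apart from the row. The IL4+emodin arrays thus differed from the IL4 arrays in slide, scan and row, and emodin cannot be told apart from these.

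In each group arrays 1 and 2 are labelled female and arrays 3 and 4 male. The labels did not hold: all 5 probes for the Y-linked genes Ddx3y, Eif2s3y, Kdm5d and Uty were well above background on 0 of the 6 arrays labelled male, and Xist, the X-inactivation RNA, was well above background on all 6 of them. Sex is therefore not compared as a biological factor, and counts without the 6 arrays labelled male stand beside the main ones below. Of the macrophage markers, 6 of the 7 with a probe, among them Adgre1, Csf1r and Lyz2, were well above background on all 12 arrays. The summed linear level of the 7, with the 75th percentile of the array as 1, was 397 to 507 in IL4+emodin, 341 to 386 in IL4 and 352 to 413 in control. Most of this sum was Lyz2, with mean log2 values of 8.49, 8.17 and 8.31. In IL4+emodin against IL4, Lyz2 (0.32) and Adgre1 (0.18) were called higher with limma (adjusted p = 0.0166 and 0.0481). Csf1r (−0.55) and Mertk (−0.56) were called lower (limma adjusted p = 0.0012 and 0.0166), and Itgam, Gata6 and Timd4 were not called. The 3 B cell markers summed to 0.121 to 0.208 in IL4+emodin, 0.250 to 0.606 in IL4 and 0.237 to 0.715 in control. Neutrophil markers summed to 5.21 to 7.79, 6.73 to 9.48 and 7.57 to 13.6 in the same order of groups. The T cell list summed to 2.25 to 5.03, 1.33 to 2.34 and 3.38 to 3.72, nearly all of it Cd3e, while Cd3d was above background on 0 arrays. The 3 mast cell and 3 mesothelial markers stayed at or below 1.02 and 3.08 on every array, though 1 of them, the mast cell marker Kit, was higher in IL4+emodin, by 1.91 against IL4 (limma adjusted p = 3.74e-07) and by 1.95 against control, with mean log2 values of −2.18 in IL4+emodin, −4.09 in IL4 and −4.13 in control; Cpa3 and Mcpt4 were not called. The part of these cells in the results below was not tested, and in such bulk samples fewer cells of a type and less RNA per cell cannot be told apart.

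Promoter sequences are shown for the 3 genes with the largest rises and the gene with the largest fall between the IL4+emodin and IL4 groups. They are RefSeq windows of build GRCm38.p6, from 250 bases before to 50 bases after the annotated start, and such windows matched 29 of the 36 genes (31 windows, 2 genes having a pair of starts). Capitals mark CCAAT boxes (CCAAT on either strand) and the antioxidant response core (TGACNNNGC on either strand, N being any base), the element bound by the NFE2L1 and NFE2L2 factors that are known to drive proteasome genes. The windows are chr3:95042565-95042864 (minus strand) for Psmd4, chr7:29180624-29180923 (minus strand) for Psmd8, chr11:70525107-70525406 (plus strand) for Psmb6 and chr14:14120896-14121195 (minus strand) for Psmd6, each written 5′ to 3′ along the gene.
Psmd4: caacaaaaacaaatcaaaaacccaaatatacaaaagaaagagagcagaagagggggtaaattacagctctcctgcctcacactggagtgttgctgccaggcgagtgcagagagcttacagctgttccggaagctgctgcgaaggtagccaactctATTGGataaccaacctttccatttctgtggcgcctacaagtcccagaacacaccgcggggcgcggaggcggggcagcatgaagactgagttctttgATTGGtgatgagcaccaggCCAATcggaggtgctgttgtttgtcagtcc
Psmd8: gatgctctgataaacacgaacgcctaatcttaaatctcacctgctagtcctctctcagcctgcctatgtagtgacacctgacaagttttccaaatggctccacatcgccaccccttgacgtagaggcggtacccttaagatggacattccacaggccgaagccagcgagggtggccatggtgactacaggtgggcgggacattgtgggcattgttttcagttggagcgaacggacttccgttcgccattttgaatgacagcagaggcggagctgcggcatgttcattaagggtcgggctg
Psmb6: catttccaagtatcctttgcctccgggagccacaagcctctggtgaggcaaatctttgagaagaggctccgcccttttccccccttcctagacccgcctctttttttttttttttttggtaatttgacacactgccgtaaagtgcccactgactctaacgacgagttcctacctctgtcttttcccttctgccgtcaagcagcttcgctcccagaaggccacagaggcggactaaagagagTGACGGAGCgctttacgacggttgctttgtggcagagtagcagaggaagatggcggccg
Psmd6: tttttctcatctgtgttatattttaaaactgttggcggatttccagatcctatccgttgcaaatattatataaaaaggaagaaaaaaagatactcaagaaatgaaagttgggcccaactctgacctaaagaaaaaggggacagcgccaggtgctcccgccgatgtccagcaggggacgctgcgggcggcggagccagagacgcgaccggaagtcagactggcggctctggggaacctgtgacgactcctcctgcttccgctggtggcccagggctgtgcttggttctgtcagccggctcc
The Psmd4 window held 3 CCAAT boxes, the Psmb6 window 1 antioxidant response core, and the Psmd8 and Psmd6 windows neither motif. Over the 31 windows the antioxidant response core occurred in 5 (16.1%), against 12.4% of all 32851 promoters in the table. Its carriers were Psmb5, Psmb6, Psmc6, Psmd9 and Psmd12. The CCAAT box occurred in 12 windows (38.7%), against 37.4% of all promoters. The core of nuclear respiratory factor 1, searched on both strands, occurred in 6 windows (19.4%), against 6.2% of all promoters, in Psma2, Psma3, Psma4, Psmc4, Psmc5 and Psmd14. A match describes these letters only and says nothing about binding.

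The first question was whether emodin changed proteasome RNA in IL4-treated macrophages. Subunit genes moved unequally within both particles: relative to the array's 75th percentile Psmd4, Psmd8, Psmb6 and Psmd11 rose by 0.88 to 1.12 on the log2 scale, while Psmd5, Psmd6 and Psmd7 fell. In all, 16 of the 35 tested genes were called higher and 3 lower (limma, Benjamini-Hochberg adjusted p below 0.05 over all genes). Over the 20862 genes, 39.4% passed as higher, 26.5% as lower and 65.9% in either direction, so the members' share of higher calls lay near that of all genes. Without the 6 arrays labelled male, a fit chosen after seeing the data with 2 arrays in each group, 6 members were called higher (Psmb6, Psmc2, Psmd2, Psmd4, Psmd8 and Psmd11) and 3 lower (Psmd5, Psmd6 and Psmd7), beside 22.6% and 19.0% of all genes. The members' median difference was 0.27, beside 0.17 for all genes. The spread of the differences was narrower, with an SD of 0.404 among members and 0.900 among all genes, and 1 member, Psmd4, moved by 2-fold or more, compared with 18.7% of all genes.

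The sign of a member's difference depended on how arrays were scaled: 9 of the 35 members had the opposite sign with quantile normalization and 25 with spike-in scaling. With quantile normalization, the scaling of the deposited value table, the all-gene median shifted by −0.14, and 11 members were called higher and 13 lower, beside 29.4% and 30.9% of all genes. The 11 higher calls (Psma6, Psmb6, Psmc2, Psmd1, Psmd2, Psmd4, Psmd8, Psmd9, Psmd10, Psmd11 and Psmd14) and the 3 lower calls (Psmd5, Psmd6 and Psmd7) were also called in the same direction with 75th percentile scaling. With spike-in scaling, which centres each array on RNA added before labelling, the all-gene median shifted by −1.08, and 0 members were called higher and 30 lower, beside 3.51% and 80.4% of all genes. The members' median was then −0.81 beside −0.91 for all genes, and with quantile normalization −0.06 beside 0.02. Which scaling matches the cells' RNA content was not tested. The differences among members, such as Psmd4 above Psmd6, did not depend on the spike-in shift, which moved every member by the same amount, and the order of Psmd4, Psmd8 and Psmd11 above Psmd5, Psmd6 and Psmd7 was also present with quantile normalization.

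**Figure D1:**
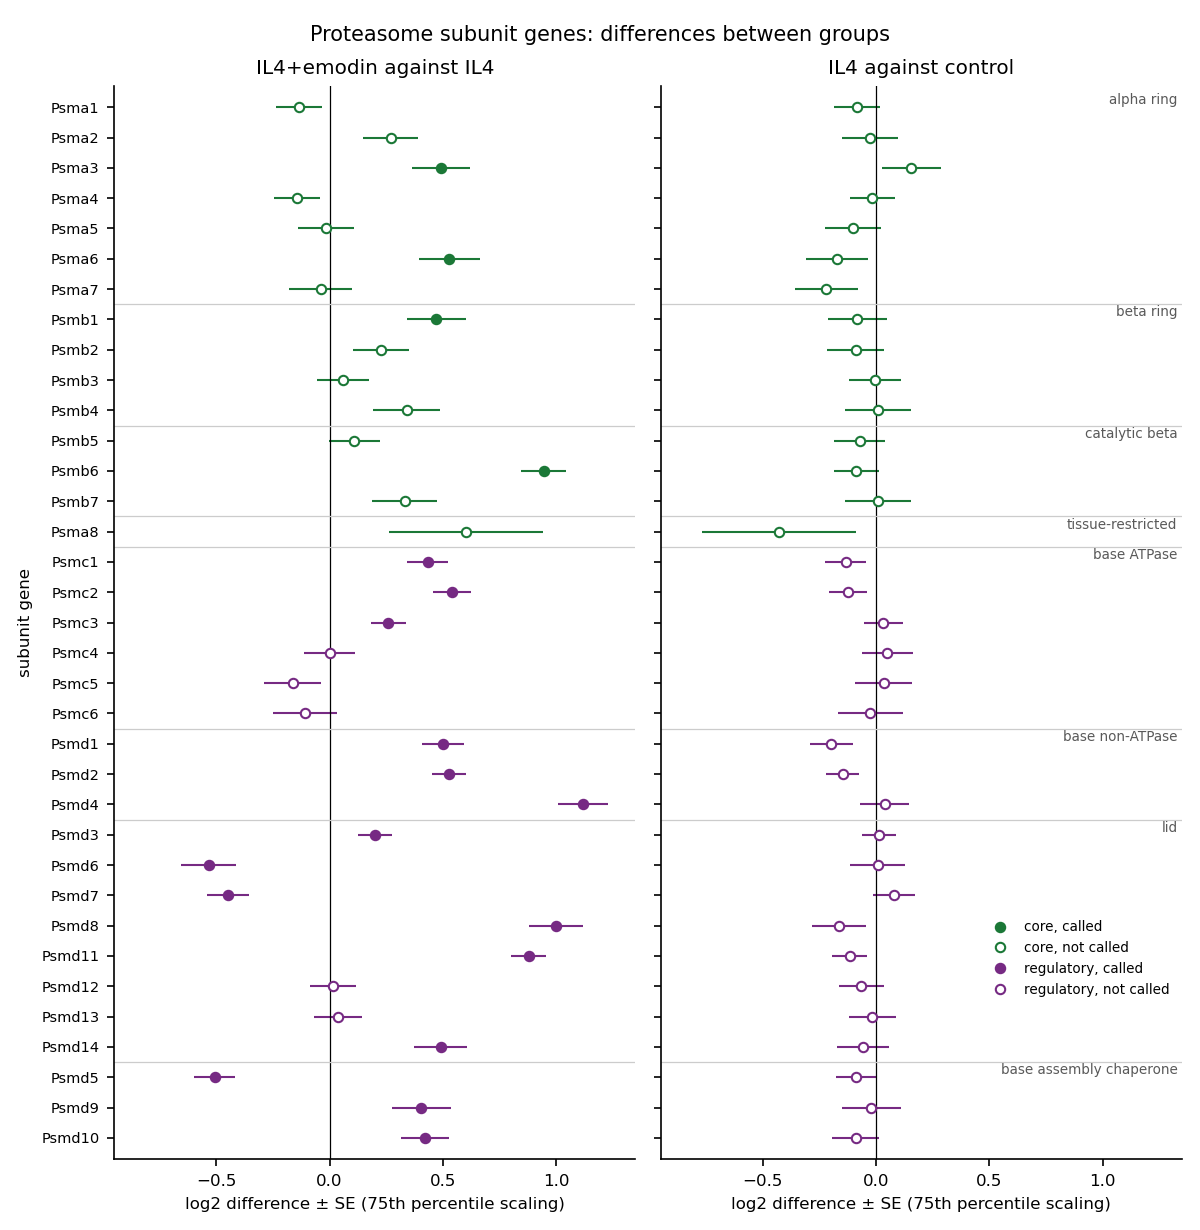
Log2 difference ± SE of each tested subunit gene, IL4+emodin against IL4 (left) and IL4 against control (right), with 75th percentile scaling. Filled points passed an adjusted p below 0.05 and rows are grouped by role; 19 points are filled on the left and 0 on the right, and with quantile normalization 11 of the 16 higher calls remained and 13 members were called lower.

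The alpha ring subunits, which form the gated outer rings of the core, included 2 that rose and 0 that fell of 7, with a median of −0.01. Psma6 rose by 0.53 ± 0.14 (SE, adjusted p = 0.00473) and Psma3 by 0.49 ± 0.13 (adjusted p = 0.00525) with limma. Psma2 differed by 0.27, Psma5 by −0.014, Psma7 by −0.039, Psma1 by −0.14 and Psma4 by −0.14, none of them called. With quantile normalization only Psma6 of the alpha ring was called higher, and Psma1, Psma2, Psma4, Psma5 and Psma7 were called lower. With spike-in scaling all 7 were called lower.

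The beta ring subunits without a peptidase site are Psmb1 to Psmb4. Psmb1 rose by 0.47 ± 0.13 (SE, limma adjusted p = 0.00655), while Psmb4 differed by 0.34, Psmb2 by 0.23 and Psmb3 by 0.058. With quantile normalization Psmb1 was no longer called (adjusted p = 0.0703) and Psmb3 was called lower, and with spike-in scaling all 4 were called lower.

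Among the catalytic subunits, Psmb6, which carries the caspase-like site, had log2 values of 9.18, 9.50, 9.38 and 9.41 on the IL4+emodin arrays, 8.40, 8.53, 8.46 and 8.29 on the IL4 arrays and 8.28, 8.63, 8.59 and 8.54 on the control arrays. Every IL4+emodin array lay above every other array. It rose 1.93-fold against IL4, by 0.95 ± 0.10 (SE, limma adjusted p = 5.90e-06) on the log2 scale, by 0.26 with quantile normalization (adjusted p = 0.0035), and differed by −0.13 with spike-in scaling. Psmb7, the trypsin-like subunit, had values of 4.88, 5.22, 5.20 and 5.29 in IL4+emodin, 4.65, 4.87, 4.95 and 4.78 in IL4 and 4.48, 5.05, 5.07 and 4.63 in control. The groups overlapped on IL4+emodin array 1, and the difference from IL4 of 0.33 ± 0.14 (SE, limma adjusted p = 0.0604) passed the threshold without that array (0.42, adjusted p = 0.0251) or without control array 1 (0.33, adjusted p = 0.0375). Psmb5, the chymotrypsin-like subunit, had values of 8.23, 8.43, 8.59 and 8.49 in IL4+emodin, 8.27, 8.47, 8.42 and 8.15 in IL4 and 8.22, 8.54, 8.57 and 8.27 in control. The 3 groups overlapped throughout, with a difference from IL4 of 0.11 ± 0.11 (SE, limma adjusted p = 0.410). With quantile normalization it was called lower by −0.51 (adjusted p = 0.000155), and with spike-in scaling by −0.97.

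The tissue-restricted core subunits were at or near background. Psmb11, the catalytic subunit of the thymus, was well above background on 0 of 12 arrays and was not tested. Psma8, the alpha subunit of the testis, was well above background on 4 IL4+emodin, 3 IL4 and 3 control arrays, and differed by 0.60 ± 0.34 (SE) between IL4+emodin and IL4 without being called. It entered the test only through the IL4+emodin group, the one group in which all 4 arrays were above background, so a higher level there is built into its selection. It was the most variable member in each group, with an SD of 0.518 in IL4+emodin, 0.548 in IL4 and 0.550 in control, beside median SDs over members of 0.147, 0.107 and 0.185.

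**Figure D2:**
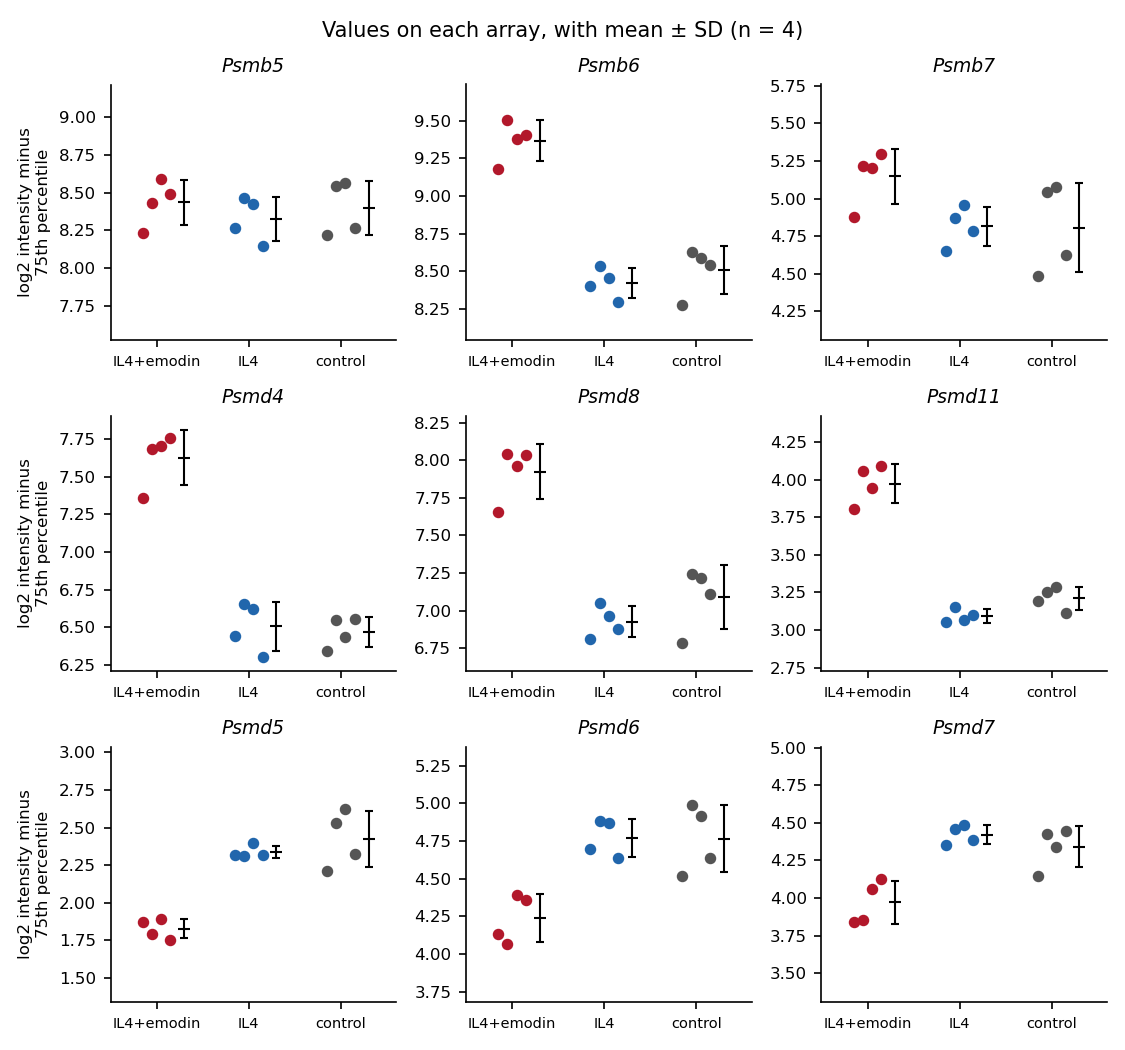
Log2 value of the 3 catalytic subunits (top), the 3 regulatory genes with the largest rise (middle) and the 3 that fell (bottom) on each array, with mean ± SD of 4 arrays beside the points; all panels span the same log2 range. The IL4+emodin points of Psmb6, Psmd4, Psmd8 and Psmd11 lie above all other points and those of Psmd5, Psmd6 and Psmd7 below them, while with spike-in scaling Psmb6, Psmd8 and Psmd11 differed from IL4 by −0.13, −0.08 and −0.20.

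In the ATPase ring of the regulatory base 3 genes of 6 rose and 0 fell. Psmc2 rose by 0.54 ± 0.09 (SE), Psmc1 by 0.43 ± 0.09 and Psmc3 by 0.26 ± 0.08, with limma adjusted p-values of 0.000148, 0.00127 and 0.0127. The value of Psmc3 rests on 11 arrays, since the spot on control array 3 was marked as an outlier. Psmc4 differed by 0.00, Psmc6 by −0.11 and Psmc5 by −0.16, and were not called. The call of Psmc3 was lost with normexp background correction (0.15, adjusted p = 0.0886) and with the mean of its probes (0.27, adjusted p = 0.145). Its probes rose by 0.26 and 0.28, and on control array 3 this mean rests on the second probe alone. With quantile normalization Psmc2 alone of the ring was called higher, Psmc3 and Psmc5 were called lower, at −0.29 and −0.32, and Psmc1 differed by 0.015, and with spike-in scaling all 6 were called lower.

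All 3 base subunits without ATPase activity rose. Psmd4, a ubiquitin receptor of the particle, had log2 values of 7.36, 7.69, 7.70 and 7.76 on the IL4+emodin arrays, 6.44, 6.66, 6.62 and 6.31 on the IL4 arrays and 6.34, 6.55, 6.43 and 6.56 on the control arrays. The IL4+emodin arrays were all higher than the others, and IL4 and control overlapped. This was the largest difference of any member, 2.17-fold against IL4, or 1.12 ± 0.11 (SE, limma adjusted p = 3.26e-06) on the log2 scale, with 0.67 under quantile normalization and 0.04 under spike-in scaling. The scaffold subunits Psmd2 and Psmd1, which dock substrates and shuttles, rose by 0.53 ± 0.07 and 0.50 ± 0.09 (SE), with limma adjusted p-values of 6.16e-05 and 0.000554, by 0.22 and 0.25 under quantile normalization, and were called lower under spike-in scaling.

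The lid, which cleaves ubiquitin chains from substrates, held both directions: of 8 genes, 4 rose and 2 fell. Psmd8, a scaffold subunit of the lid, had log2 values of 7.66, 8.04, 7.96 and 8.04 in IL4+emodin, 6.81, 7.05, 6.96 and 6.88 in IL4 and 6.79, 7.25, 7.22 and 7.11 in control. Its IL4+emodin values did not overlap the others, and it rose by 1.00 ± 0.12 against IL4 (SE, limma adjusted p = 1.68e-05), just under a doubling. Psmd11, another lid scaffold, had values of 3.81, 4.05, 3.94 and 4.09 in IL4+emodin, 3.06, 3.16, 3.07 and 3.10 in IL4 and 3.19, 3.25, 3.29 and 3.11 in control. Again no IL4+emodin array overlapped another, and the rise of 0.88 ± 0.08 (SE, limma adjusted p = 1.44e-06) was nearly as large with quantile normalization (0.82), whereas Psmd8 rose by 0.48 there, and with spike-in scaling the genes differed by −0.20 and −0.08. Psmd14, the deubiquitinase of the lid, rose by 0.49 ± 0.12 (SE, limma adjusted p = 0.00272), and by 0.46 under quantile normalization. Psmd3 rose by 0.20 ± 0.07 (SE, limma adjusted p = 0.0314). Its call was lost with quantile normalization and with normexp background correction (0.15, limma adjusted p = 0.0828). It was also lost without IL4 array 2, IL4 array 3 or IL4+emodin array 4 (0.20, 0.16 and 0.16). Psmd13 differed by 0.037 and Psmd12 by 0.015, and Psmd12 was called lower with quantile normalization (−0.24).

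The lid subunits that fell were Psmd6 and Psmd7. Psmd6, a lid scaffold, had log2 values of 4.13, 4.07, 4.39 and 4.36 in IL4+emodin, 4.70, 4.88, 4.87 and 4.64 in IL4 and 4.52, 4.99, 4.92 and 4.64 in control. Psmd7, the inactive partner of Psmd14, had values of 3.84, 3.86, 4.06 and 4.13 in IL4+emodin, 4.35, 4.46, 4.49 and 4.38 in IL4 and 4.15, 4.42, 4.34 and 4.45 in control. All IL4+emodin values of both genes lay below all others. Psmd6 fell by 0.53 ± 0.12 (SE, limma adjusted p = 0.00204) and Psmd7 by 0.45 ± 0.09 (adjusted p = 0.00103), with differences of −0.63 and −0.52 under quantile normalization and −1.61 and −1.53 under spike-in scaling.

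Of the 3 chaperones that assemble the base, Psmd10 rose by 0.42 ± 0.10 (SE, limma adjusted p = 0.00382), Psmd9 by 0.40 ± 0.13 (adjusted p = 0.0163), and Psmd5 fell. Psmd5 had log2 values of 1.87, 1.80, 1.89 and 1.76 in IL4+emodin, 2.32, 2.31, 2.40 and 2.32 in IL4 and 2.21, 2.53, 2.62 and 2.33 in control. No IL4+emodin array reached another group, and the fall of 0.51 ± 0.09 (SE, limma adjusted p = 0.000371) was −0.49 with quantile normalization. The rise of Psmd9 held for 1 of its 2 probes, the brighter one, while the other differed by −0.60, so its direction is uncertain, as is that of Psmd10 under spike-in scaling (−0.66). The 2 probes of Psmd12 gave 0.02 and 0.32, and those of Psma4, Psmb5, Psmc1, Psmc2, Psmc3 and Psmd10 had the same sign within each gene.

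**Figure D3:**
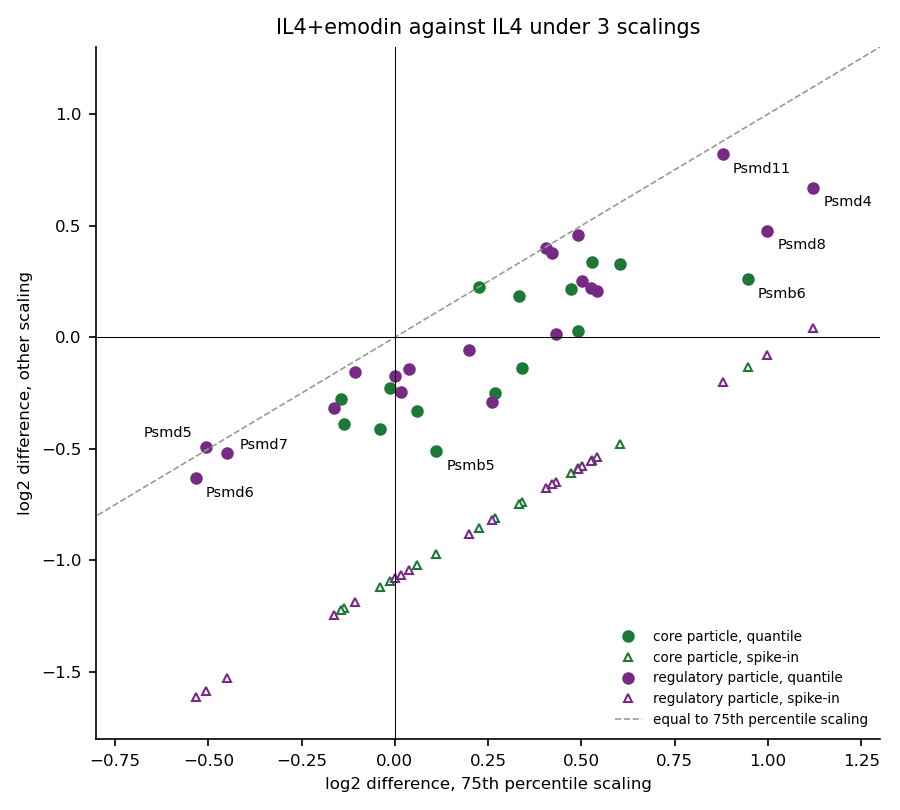
Log2 difference of each member, IL4+emodin against IL4, with 75th percentile scaling (horizontal) and with quantile normalization (circles) or spike-in scaling (triangles, vertical). Circles lie up to 0.68 (Psmb6) below the dashed line of equality and triangles 1.08 below it; 11 of the 16 higher calls and the 3 lower calls were kept with quantile normalization.

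The gap between 75th percentile scaling and quantile normalization was not even over members. It ran from −0.01 for Psmd5, one of the dimmest probes, to 0.68 for Psmb6, the brightest, and over the 35 members it followed the level of the probe (Spearman's rho 0.93, a description over probes that share the same arrays). Psmd11, Psmd14, Psmd10 and Psmd5 had nearly the same difference under both scalings, while Psmb5, Psmb6 and Psmc3 had different ones. Psma8, near background, differed by 0.60 with the one and 0.33 with the other.

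The next question was whether the core and the regulatory particle moved apart. Of the core genes 4 of 15 tested were called higher and 0 lower in IL4+emodin against IL4, with a median of 0.27. Of the regulatory genes 12 of 20 were called higher and 3 lower, with a median of 0.33, and 10 of 17 and 2 without the assembly chaperones. Over all 20862 genes 39.4% were called higher and 26.5% lower. The core and regulatory medians differed by −0.06 (core minus regulatory). Without Psma8, which entered the test only through the IL4+emodin group, and Psmb11, they differed by −0.08. On the arrays themselves, the core median minus the regulatory median of deviations from gene means averaged −0.056 ± 0.037 in IL4+emodin, 0.064 ± 0.049 in IL4 and 0.0021 ± 0.11 in control (SD, n = 4 each). The IL4+emodin arrays ran from −0.11 to −0.026 and the IL4 arrays from 0.024 to 0.13, without overlap, while control arrays spanned −0.099 to 0.14 and overlapped both. The sign was not stable, since the difference in medians was 0.0099 without the assembly chaperones and 0.035 with the mean of all probes of a gene. Both medians became negative with quantile normalization (core −0.14, regulatory −0.02) and with spike-in scaling (−0.81 and −0.75).

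**Figure D4:**
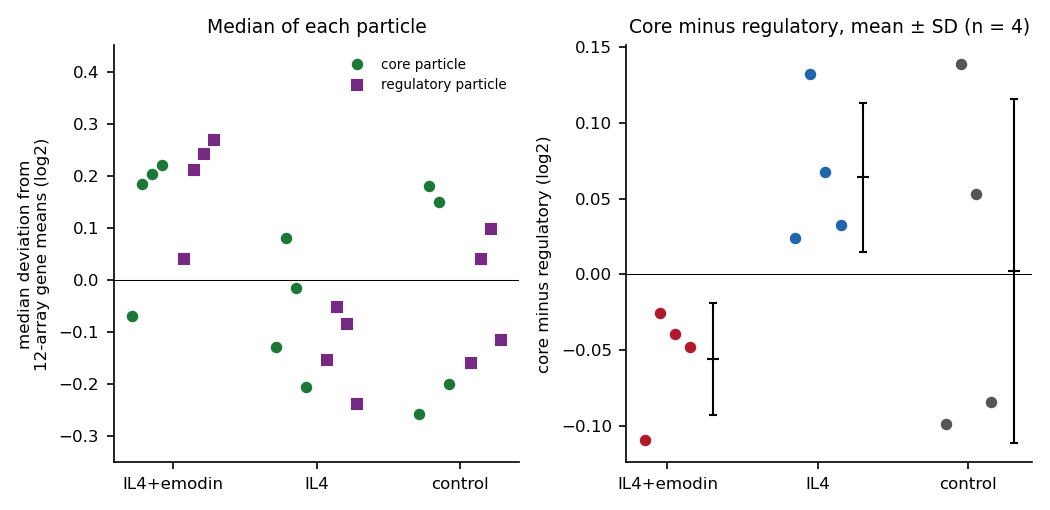
Left, the median over core genes and over regulatory genes of the deviation from the gene's mean over 12 arrays, on each array. Right, core minus regulatory on each array, with mean ± SD of 4 arrays: all IL4+emodin points are below 0 and all IL4 points above it, with control points on both sides, and the difference in medians turned positive without the assembly chaperones.

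IL4 alone changed no subunit past the threshold in the fit without replicate number, and 1 with it. Against control, 0 of 35 members were called in either direction with limma, where 17.5% of the 20862 genes passed, 8.98% as higher and 8.57% as lower, and at an unadjusted p below 0.05 the count was 0 as well. Without the arrays labelled male 0 were called too, beside 2.88% of all genes higher and 1.40% lower. Differences ran from −0.43 (Psma8) to 0.16 (Psma3), with a median of −0.08 for the core and −0.04 for the regulatory particle, beside −0.03 for all genes. Their SD was 0.104, against 0.505 for all genes. The catalytic subunits differed by −0.09 ± 0.10 (Psmb6), −0.07 ± 0.11 (Psmb5) and 0.01 ± 0.14 (Psmb7; SE). The IL4 and control arrays did not overlap for Psmd1 and Psmd2 of the tested members, neither of them called. How many of all genes separate in this way was not counted, so nothing is read from it. Replicate numbers pair the arrays of this comparison. When the number was fitted as a block, Psma8, near background, was called lower (−0.43, limma adjusted p = 0.0387, against 0.445 without it), beside 12.8% of all genes lower and 12.7% higher in that fit. With it 4 members were below an unadjusted p of 0.05, Psma8, Psmd1, Psmd2 and Psmd8. The difference in medians, core minus regulatory, was −0.04, and 0.02 without control array 4.

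Against vehicle control, 16 members were higher and 3 lower in IL4+emodin; the IL4+emodin arrays are those of the comparison with IL4. In this comparison 37.3% of the 20862 genes passed as higher, 25.6% as lower and 62.9% in either direction, with an all-gene median of 0.15. Psmd4 rose by 1.16 ± 0.11 (SE), Psmb6 by 0.86 ± 0.10, Psmd8 by 0.83 ± 0.12 and Psmd11 by 0.76 ± 0.08, with limma adjusted p-values of 2.63e-06, 1.39e-05, 7.63e-05 and 4.88e-06. Psmd5 fell by 0.59 ± 0.09, Psmd6 by 0.53 ± 0.12 and Psmd7 by 0.37 ± 0.09 (SE), with limma adjusted p-values of 0.000119, 0.0024 and 0.004. Psmb7 differed by 0.34 and Psmb5 by 0.04, without being called. The split was 8 higher and 13 lower with quantile normalization, beside 26.8% and 30.2% of all genes, and 0 higher and 31 lower with spike-in scaling, beside 4.18% and 75.1%. Leaving out control array 1 gave 13 higher and 5 lower, in a fit whose share of all genes was not counted. Leaving out the arrays labelled male gave 4 higher and 2 lower, beside 21.6% and 17.4% of all genes, Psmd7 (−0.44) being no longer called. The core median (0.17) minus the regulatory median (0.30) was −0.12, and 0.02 without control array 2.

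The catalytic subunits were then set against the immunoproteasome subunits that take their places, a comparison chosen after their values were seen. Psmb10, the counterpart of Psmb7, rose by 1.51 ± 0.08 (SE, limma adjusted p = 2.51e-07) in IL4 against control and fell by 1.97 ± 0.08 (adjusted p = 5.30e-09) in IL4+emodin against IL4. Within each array the log2 difference Psmb7 minus Psmb10 changed by 2.30 in IL4+emodin against IL4, by −1.51 in IL4 against control and by 0.79 in IL4+emodin against control. Psmb6 minus Psmb9 changed by 1.26, −0.36 and 0.90 in the same 3 comparisons, of which 0.65 was left in the first, and 0.37 in the last, with quantile normalization. In IL4 against control Psmb7 itself differed by 0.01. In all 6 the groups did not overlap (exact permutation test, two-sided, 4 against 4 arrays, p = 0.0286, the smallest possible, and 0.0429 after adjustment over 9 comparisons). Since the pairs were chosen with their values known, the exact p-values here describe the separation and no conclusion is drawn from them. How many of all gene pairs separate in this way was not counted. Psmb5 minus Psmb8 changed by −0.02 (exact p = 0.8), −0.11 (0.229) and −0.13 (0.2), and by −0.43 with quantile normalization in IL4+emodin against IL4. Spike-in scaling cannot alter a difference within an array.

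**Figure D5:**
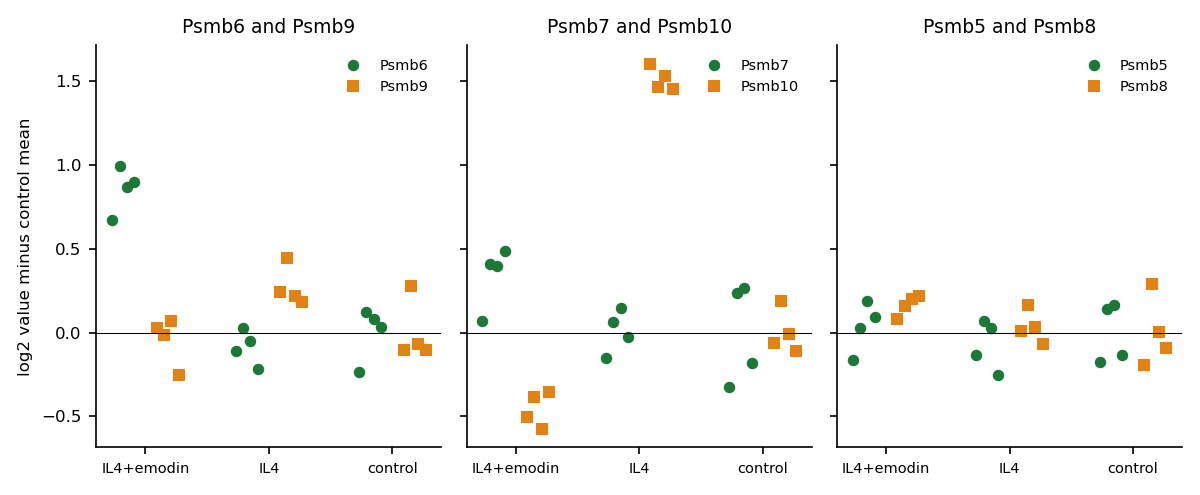
Log2 value minus the control mean of the same gene, on each array, for each catalytic subunit (circles) and its immunoproteasome counterpart (squares). Psmb10 stands 1.51 above control in the IL4 group and 0.45 below it in IL4+emodin, Psmb6 stands apart in the IL4+emodin group, and the points of Psmb5 and of Psmb8 overlap between groups; under spike-in scaling Psmb6 differed from control by −0.09.

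The genes that work with these subunits were grouped by role. Of the 5 immunoproteasome and 11S activator genes, 0 rose and 2 fell in IL4+emodin against IL4, Psmb10 and Psmb9 (−0.32 ± 0.11, SE, limma adjusted p = 0.0227, a call lost without IL4 array 2 or IL4+emodin array 4, at −0.26 and −0.25). With quantile normalization 3 of the 5 were called lower and with spike-in scaling all 5. In IL4 against control 1 rose, Psmb10, and with the replicate block 2, Psmb9 (0.27) being the other. Of the other activators and the inhibitor (Psme3, Psme4, Psmf1), Psmf1, a proteasome inhibitor, rose by 0.43 in IL4+emodin against IL4, and 3 of 3 rose against control, while with spike-in scaling 0 were called higher and 3 and 2 lower in these comparisons. Psme4 rose by 0.30 in IL4 against control (limma adjusted p = 0.0258), a call lost without control array 2 or 4, or IL4 array 1, 3 or 4 (0.26 to 0.31).

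Of the 5 chaperones that assemble the core, 0 rose and 2 fell in IL4+emodin against IL4, Pomp by 0.55 ± 0.12 (SE, limma adjusted p = 0.00119) and Psmg3 by 0.38 ± 0.10 (adjusted p = 0.00628), and 3 were called lower with quantile normalization. Pomp is the maturation factor of the beta ring. Among proteins that associate with the particle, 3 of 6 rose and 1 fell in the same comparison: the adaptor Ecpas rose by 1.23, the deubiquitinase Uchl5 by 0.83 and the lid component Sem1 by 0.49, while the ubiquitin ligase Ube3c fell by 1.08. With quantile normalization 2 of the 6 were called higher and 2 lower, and Sem1 differed by −0.14. With spike-in scaling all 5 core chaperones were called lower, and of the particle-associated genes 0 were called higher and 4 lower. Ecpas then differed by 0.15 and Uchl5 by −0.25.

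In IL4+emodin against IL4, 3 of 4 genes for ubiquitin and its activation rose and 1 fell. The polyubiquitin gene Ubb rose by 0.96, Rps27a, which encodes ubiquitin fused to a ribosomal protein, by 0.79 and the ubiquitin-activating enzyme Uba1 by 0.39, while Uba6, another such enzyme, fell by 0.78. With quantile normalization 1 of 4 was called higher and 1 lower. The 4 shuttle genes examined, which carry ubiquitinated proteins to the proteasome, rose, with Ubqln1 at 0.81, Rad23b at 0.61, Ubqln4 at 0.60 and Ubqln2 at 0.34, and 4 of 4 were also called higher with quantile normalization. With spike-in scaling 0 genes of either list were called higher.

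The NFE2L1 route in mammals induces subunit genes when proteasome activity is low. A list of 8 genes was made around it, which also held Nfe2l2 and Herpud1, not themselves steps of it. In IL4+emodin against IL4, 2 of the 8 rose and 5 fell, with Nfe2l2 among the falls. With spike-in scaling 0 were called higher and 7 lower. Nfe2l1, the transcription factor, had log2 values of 1.44, 1.50, 1.28 and 1.39 in IL4+emodin, 0.45, 0.32, 0.34 and 0.22 in IL4 and 0.54, 0.12, 0.28 and 0.18 in control. It rose by 1.07 ± 0.10 (SE, limma adjusted p = 1.78e-06), by 1.10 with quantile normalization, and differed by −0.01 with spike-in scaling. Ufd1, a cofactor of the Vcp segregase, rose by 0.48. The related factor Nfe2l2 fell by 0.66 and Ddi2, the protease that activates NFE2L1, by 0.39, and the other falls were Ngly1, Nploc4 and Vcp.

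The COP9 signalosome, a complex related to the lid, had 3 genes of 9 higher and 1 lower in IL4+emodin against IL4, Cops2 (1.14), Cops4 (0.62), Cops6 (0.59) and Cops7b (−0.45), with 4 lower under quantile normalization and, under spike-in scaling, 0 higher and 8 lower. Cops7b was its 1 call in IL4 against control, higher by 0.84 ± 0.08 (SE, limma adjusted p = 1.58e-05). Of the cytosolic ribosomal proteins tested, abundant RNAs taken as a comparison, 77 of 81 were called higher and 0 lower in IL4+emodin against IL4, with a median of 0.75, 10 higher and 0 lower with quantile normalization (median 0.07), and 0 higher and 54 lower with spike-in scaling (median −0.33). In IL4 against control the ribosomal, ubiquitin, shuttle, core assembly, particle-associated and NFE2L1 lists had 0 calls with limma, and 2, 0, 0, 0, 0 and 1 genes at an unadjusted p below 0.05.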

How the data were processed

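Total RNA was labelled with Cy3, per the labels, and read on 12 Agilent arrays. The deposited scanner files hold spot intensity, background-subtracted by the authors with Agilent Feature Extraction 10.7.3.1, per the file headers. The deposited value table holds log2 values, quantile-normalized and centred on each probe's median as judged by recomputing it, and served as an alternative.

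Spots marked as outliers and control spots were left out. Of 55681 probes, 27509 matched a RefSeq gene (GRCm38.p6) by transcript accession and 28172 stayed unnamed. Probes were kept (27705) where 1 group or more had them well above background on its 4 arrays, and the brightest probe stood for each gene. The log2 intensity minus the array's 75th percentile was fitted as 3 group means with limma 3.58.1 in R 4.3.3 (9 residual degrees of freedom), Benjamini-Hochberg adjusted over 20862 genes and called below 0.05. The fit was tested on simulated data with 200 changed genes. It recovered 40.3% of 1.5-fold and 71.6% of 2-fold changes in IL4+emodin against IL4. In IL4 against control it recovered 53.7% and 83.6%, so a member that was not called may still differ. The number of arrays limits the precision. Figures and exact tests used Python 3.11.15 with scipy 1.17.1 and matplotlib 3.10.9.

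Groups and replicate numbers came from the sample titles. Same-numbered arrays deviated together in IL4 against control (r of 0.524, 0.311, 0.334 and 0.437), so the numbers, which are also slide columns, pair these arrays. In IL4+emodin against IL4 the correlations were 0.437, 0.0934, 0.309 and 0.396, and in IL4+emodin against control 0.515, 0.0556, 0.337 and 0.374. In each of these comparisons 1 of the 4 was under 0.1, and whether the numbers pair those arrays was not settled. The main fit left the number out in every comparison, and the block fit held it.

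Members and gene lists were chosen with earlier results of these data known. Every tested member is named with its difference in IL4+emodin against IL4, with array values for the catalytic subunits and the 4 largest rises and falls, and up to 4 called genes per companion list. From these lists 3 genes were left out and are not reported here. Alternatives were quantile normalization, spike-in scaling, normexp (on the median spot signal, as the mean signal was absent), the deposited table, 2 filters, the mean of probes, a replicate block, fits of the compared groups alone, leaving out each array and, chosen after seeing the data, the arrays labelled female alone.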

Additional observations from a re-analysis of the deposited data

Results flagged for a closer look

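In 6 of the 104 sets of 4 arrays examined (each tested member in each group, where all 4 arrays had a value) 1 array stood far from the other 3 for its group's range, a share that chance alone gives in about 1 of 20 sets. Of these, 4 were on IL4+emodin array 1, where the log2 value was low: Psma2 at 7.42 (nearest other array 7.73), Psmb2 at 2.18 (2.46), Psmc1 at 6.77 (7.07) and Psmc3 at 7.85 (8.06). Psmd1 was high on control array 3, at 5.84 against a nearest value of 5.64, and Psmd5 was high on IL4 array 3, at 2.40 against 2.32. Without IL4+emodin array 1, Psma2 passed the threshold against IL4 (0.35, limma adjusted p = 0.027).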

How the results depend on the processing

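Of the 35 members, 9 changed sign with quantile normalization and 25 with spike-in scaling in IL4+emodin against IL4. Spike-in scaling moved every member there by the same amount. In IL4+emodin against IL4, quantile normalization and the deposited value table both gave 13 members lower, and spike-in scaling 0 higher and 30 lower. Against control they gave 8 higher and 13 lower (7 and 13 in the table), and 0 and 31. With spike-in scaling 732 of all genes were called higher and 16774 lower in IL4+emodin against IL4, and 634 lower in IL4 against control. The cause was not tested. Spike-in scaling turned Psma2 (−0.81), Psma3 (−0.59), Psma6 (−0.55), Psmb1 (−0.61), Psmb2 (−0.85), Psmb3 (−1.02), Psmb4 (−0.74), Psmb5 (−0.97), Psmb6 (−0.13), Psmb7 (−0.75), Psmc1 (−0.65), Psmc2 (−0.54), Psmc3 (−0.82), Psmc4 (−1.08), Psmd1 (−0.58), Psmd2 (−0.55), Psmd3 (−0.88), Psmd8 (−0.082), Psmd9 (−0.67), Psmd10 (−0.66), Psmd11 (−0.20), Psmd12 (−1.06), Psmd13 (−1.04) and Psmd14 (−0.59) against IL4, and, of the genes named against control, Psmb5 (−0.91), Psmb6 (−0.093), Psmb7 (−0.61), Psmd8 (−0.12) and Psmd11 (−0.19). In either comparison 12 members called higher became called lower with it, and Psma8, called by neither, was −0.48 against IL4. It also turned Cops4 (−0.46), Cops6 (−0.48), Nfe2l1 (−0.00699), Psmf1 (−0.65), Rad23b (−0.47), Rps27a (−0.29), Sem1 (−0.59), Uba1 (−0.69), Ubb (−0.12), Ubqln1 (−0.27), Ubqln2 (−0.74), Ubqln4 (−0.48), Uchl5 (−0.25) and Ufd1 (−0.60). Quantile normalization and the table turned Psma2 (−0.25 in both), Psmb3 (−0.33, −0.34), Psmb5 (−0.51, −0.52, and against control −0.54, −0.55), Psmc3 (−0.29, −0.30), Psmd3 (−0.056, −0.0600), Psmd12 (−0.24, −0.25) and Sem1 (−0.14 in both), and the mean of probes turned Psmd9 (−0.10). Psmb4, Psmc4 and Psmd13 also changed sign with quantile normalization in IL4+emodin against IL4. The core median became −0.14 with quantile normalization, −0.14 in the table and −0.81 with spike-in scaling against IL4, and −0.11, −0.11 and −0.78 against control. The regulatory median became −0.021, −0.027 and −0.75, and −0.073, −0.079 and −0.69. In IL4 against control spike-in scaling made them 0.047 and 0.0804.

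Core minus regulatory in IL4 against control was 0.012 with quantile normalization and 0.013 in the table. In IL4+emodin against IL4 it was −0.12 with both, −0.013 with normexp, 0.035 with the mean of probes and 0.0099 without the assembly chaperones. In IL4+emodin against control it was −0.035 with quantile normalization, −0.034 in the table, −0.016 with normexp and −0.065 with the mean of probes. Leaving out single arrays gave −0.047 to 0.0201, −0.081 to −0.04 and −0.15 to 0.025 in these 3 comparisons. Calls in IL4 against control ran from 0 to 0 in each direction. Against IL4 they were 15 to 18 higher and 3 to 3 lower, and against control 13 to 19 higher and 3 to 5 lower. The shares of all genes called were not counted for the fits without single arrays, so nothing is read from these ranges about the members in particular. Normexp gave 1 member lower in IL4 against control, beside 2982 of all genes, and 5 in IL4+emodin against control, beside 4986. No filter on dim probes gave 1 lower in IL4 against control, where the share of all genes was not counted.

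With the replicate number as a block, 1 member was called lower in IL4 against control, Psma8 (−0.43, adjusted p = 0.0387). For IL4+emodin, 1 of the 4 same-number correlations was under 0.1 against IL4 and against control, and the others were 0.309 or higher. No member's call was lost under the block in these 2 comparisons. Psma2, Psma8, Psmb2, Psmb4 and Psmb7 were then called higher against IL4, and Psma2, Psmb4 and Psmb7 higher and Psma1 lower against control. Psma8 entered the test only through the IL4+emodin group, so its higher level there is built into its selection. The shares of all genes called under the block were not counted for these comparisons. On the 6 arrays labelled female alone, 6 members were higher and 3 lower in IL4+emodin against IL4, and 4 and 2 against control. Core minus regulatory was then −0.015 and −0.055. The smaller counts come with 2 arrays in each group. Probes well above background set the limit for Psmb11 and Psma8.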

Other observations

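The replicates carry the labels female and male, which the sex-linked probes did not bear out. A fit with an interaction between label and treatment called 0 of 35 members for IL4 and 0 of 35 for emodin, with 0 and 0 at an unadjusted p below 0.05 (limma). It called 0 of all 20862 genes for either effect as well, so the members' counts say nothing particular to them. Gene length on the genome, taken from RefSeq, ran with the members' differences in IL4+emodin against IL4 at a Spearman's rho of 0.26 over 35 genes, and −0.07 over 13197 named genes, as a description of genes that share the same arrays.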
